A study of Mus musculus with 6 samples.

Results

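The unfolded protein response and the integrated stress response were followed through 35 genes, out of 16871 genes listed in at least 1 library. The genes were taken by name, as the endoplasmic reticulum (ER) chaperones and folding enzymes, the sensors of ER stress, their transcription factors, the machinery that returns misfolded proteins to the cytosol for degradation, and targets of the factors ATF4 and CHOP. The rule names the genes and uses no expression value, though it was written with earlier results of these data known. Each of the 35 was listed in every library. The cells were mouse macrophages matured from bone marrow in culture for 7 days and then exposed to oxidised low-density lipoprotein (oxLDL). RNA sequencing gave 3 libraries of the double knockout (DKO), whose cells lack the mitochondrial aldehyde dehydrogenase ALDH2 and the LDL receptor, and 3 of the LDL receptor knockout (LKO), which the design names as the control. All came from C57BL/6 mice aged 8 weeks, and all libraries share the loss of the LDL receptor and the oxLDL exposure, so no comparison with untreated or wild-type cells can be made. The labels do not state the oxLDL dose, which cells the deletions reach, or whether each library is a separate animal, and the p-values therefore reflect the spread among these libraries alone, which may be technical.

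Proteins that enter the ER are folded there by chaperones such as BiP (Hspa5), and misfolded proteins draw BiP away from 3 sensors in the ER membrane. IRE1 (Ern1) removes a short piece from Xbp1 mRNA so that it encodes an active factor, ATF6 (Atf6) is cut in the Golgi to release a factor, and PERK (Eif2ak3) phosphorylates the translation factor eIF2, which lowers protein synthesis while ATF4 is made. In the integrated stress response, kinases that sense other stresses phosphorylate eIF2 as well and lead to the same ATF4 programme. Macrophages loaded with oxidised lipoprotein or free cholesterol are known for ER stress, and CHOP (Ddit3) has been studied in their death in atherosclerotic plaques. Splicing, cleavage and phosphorylation are not visible in gene-level RNA values.

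The libraries held between 10760625 and 10987584 expected counts, and the within-group biological coefficient of variation was 0.0413. The targeted gene Aldh2 had 7.00, 7.06 and 7.34 FPKM (fragments per kilobase of transcript, scaled to library size) in DKO and 249, 239 and 236 FPKM in LKO, so the libraries matched their labels (log2 fold change −5.01 ± 0.06 SE, edgeR adjusted p = 4e-24). For these FPKM values the exact permutation p, two-sided, was 0.1, and no smaller one can be had with 3 libraries a group. Macrophage markers were abundant, with summed levels of 11990.4 to 13167.6 FPKM in DKO and 10728.8 to 11438.7 FPKM in LKO over 12 genes, of which 6 rose and 1, Adgre1, fell. Markers of other cells moved in the same libraries. Their counts below cover tested genes, while the summed levels cover all markers listed, tested or not. These are 15 neutrophil, 10 B-cell, 8 plasma cell, 16 stromal and 8 dendritic cell markers. Among 13 neutrophil markers, 9 were lower in DKO and none higher, with summed levels of 383 to 425 FPKM in DKO and 598 to 658 FPKM in LKO. Of 8 B-cell markers, 7 fell and none rose (159 to 168 FPKM in DKO, 209 to 225 FPKM in LKO, with Ebf1 and Vpreb3 under 0.5 FPKM throughout), and of 7 plasma cell markers 3 fell and none rose (33.6 to 38.9 FPKM in DKO, 34.5 to 39.1 FPKM in LKO, with Tnfrsf17 under 0.5 FPKM). Of 13 stromal markers, 9 rose and none fell (85.1 to 114 FPKM in DKO, 55.01 to 61.8 FPKM in LKO, with Lum, Pdgfra, Pdgfrb and Thy1 under 0.5 FPKM). Dendritic cell markers summed to 1.75 to 2.87 FPKM in DKO and 2.45 to 4.19 FPKM in LKO. In such bulk libraries fewer cells of a type and less RNA per cell cannot be told apart, and the part of these other cells in the results below was not tested.

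Most of the stress genes stood at nearly the same level in both genotypes. Of the 33 members with enough reads to be tested, 3 were higher in DKO (Ern1, Atf5 and Edem1), 5 were lower (Herpud1, Atf3, Pdia4, Atf6 and Sel1l) and 25 did not pass an edgeR adjusted p of 0.05. Over all 11809 genes tested, 14.3% passed, 7.42% as higher and 6.88% as lower. The median log2 fold change of the members was 0.012, against 0.00018 over all genes, and 29 of the 33 had log2 fold changes between −0.3 and 0.3, as did 84.0% of all genes. Among the 25 that did not pass, the 95% interval of the difference lay inside −0.3 to 0.3 for 20, the exceptions being Dnajb9, Eif2ak3, Edem2, Derl3 and Asns. The 3 DKO values did not overlap the 3 LKO values for 12 of the 33 members, 6 above and 6 below, against 29.6% of all genes tested (13.6% above and 16.0% below). The 2 members left untested, Trib3 and Chac1, had at most 11 and 9 counts in a library.

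**Figure D1:**
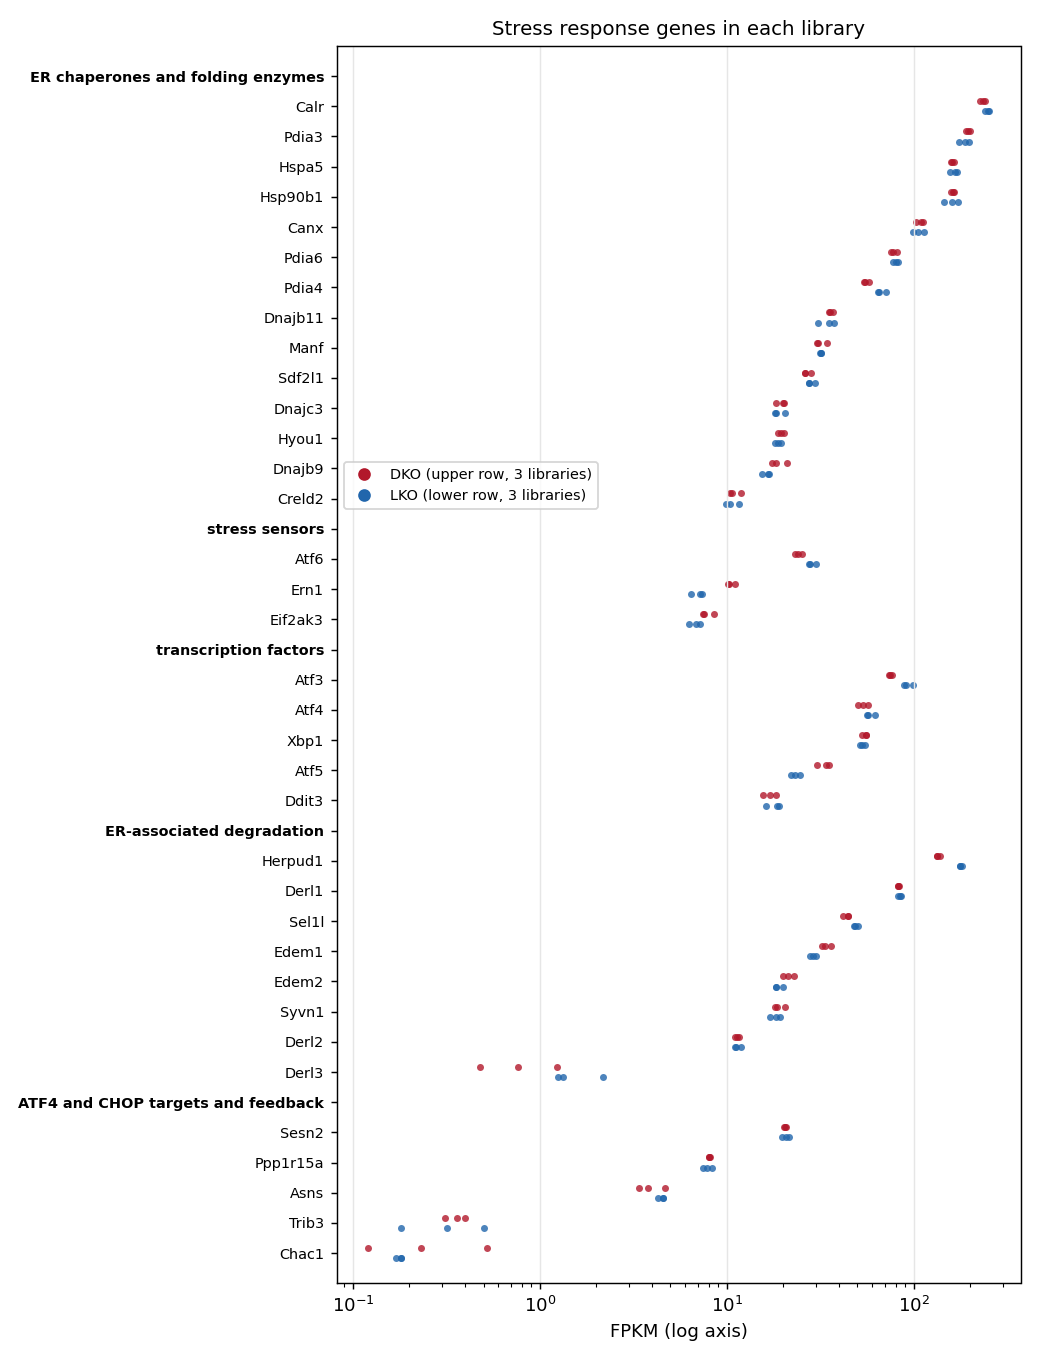
Level of each of the 35 stress response genes in FPKM on a log axis, by role, with the 3 DKO libraries in the upper row of points and the 3 LKO libraries in the lower row of each gene. Levels run from under 1 FPKM for Trib3 and Chac1 to over 200 FPKM for Calr, and for most genes the rows overlap.

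Promoter windows show which members hold known stress response elements. The ER stress response element (ERSE, CCAAT and CCACG with any 9 bases between), which active ATF6 binds together with the factor NF-Y, was searched on both strands in RefSeq windows of build GRCm38.p6 that run from 250 bases before to 50 bases after each gene's start, 300 bases in all. It was present in 39 of 32851 windows (0.119%) and in 9 of the 33 windows that 31 members have, those of Calr, Canx, Creld2, Derl3, Dnajc3, Hsp90b1, Hspa5, Pdia6 and Syvn1. The shorter ERSE-II (ATTGG and CCACG with any 1 base between) was in 12 windows (0.0365%), among them those of Dnajb11 and Herpud1. The C/EBP-ATF element TGATGCAA, which ATF4 and its partners bind, was in 294 windows (0.895%), among them those of Atf3, Chac1 and Herpud1. Where a member's window held 2 matches, as in Herpud1 and Hsp90b1, the matches shared 0 bases. ERSE motifs were first described in chaperone promoters, so their share here is no independent result, and a match of letters is not shown binding. Of the 9 members with an ERSE, none passed at an edgeR adjusted p of 0.05, and 0 were called by DESeq2 or by limma on log2(FPKM + 1). With 14.3% of all genes passing, 0 of 9 is near that share and no result about these genes. Of these 9, Derl3 alone had an unadjusted p under 0.05 in edgeR. The windows of Hspa5, which did not pass, and of Herpud1 and Atf3, which fell, are shown 5′ to 3′ with the fixed letters of these elements in capitals. Hspa5 lies at chr2:34771840-34772139 on the plus strand, Herpud1 at chr8:94386179-94386478 on the plus strand and Atf3 at chr1:191183284-191183583 on the minus strand. This build is not the one named for the files, so these coordinates belong to the sequences and not to the counts.
Hspa5: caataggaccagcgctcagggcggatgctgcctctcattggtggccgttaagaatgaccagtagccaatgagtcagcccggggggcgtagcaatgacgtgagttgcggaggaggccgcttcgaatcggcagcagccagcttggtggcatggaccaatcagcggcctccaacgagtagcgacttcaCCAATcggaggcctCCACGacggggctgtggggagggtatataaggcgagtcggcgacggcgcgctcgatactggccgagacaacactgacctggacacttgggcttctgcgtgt
Herpud1: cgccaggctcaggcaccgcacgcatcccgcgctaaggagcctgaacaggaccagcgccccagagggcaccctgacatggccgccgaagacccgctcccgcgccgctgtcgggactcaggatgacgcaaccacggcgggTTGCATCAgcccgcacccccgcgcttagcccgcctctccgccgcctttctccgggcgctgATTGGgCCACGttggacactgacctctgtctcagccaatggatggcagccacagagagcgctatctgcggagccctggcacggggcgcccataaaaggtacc
Atf3: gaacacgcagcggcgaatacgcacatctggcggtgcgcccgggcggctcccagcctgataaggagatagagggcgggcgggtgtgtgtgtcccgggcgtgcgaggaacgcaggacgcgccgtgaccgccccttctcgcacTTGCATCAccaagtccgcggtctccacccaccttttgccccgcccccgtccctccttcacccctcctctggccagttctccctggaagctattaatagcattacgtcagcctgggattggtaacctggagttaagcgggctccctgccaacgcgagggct
In Herpud1 and Atf3 the capitals TTGCATCA are the C/EBP-ATF element read on the opposite strand.

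Of the 14 ER chaperones and folding enzymes, Pdia4 fell and 13 did not pass. Hspa5, the chaperone that holds the sensors inactive and the usual marker of the unfolded protein response, had 161, 158 and 164 FPKM in DKO and 171, 166 and 157 FPKM in LKO. These ranges overlapped, and the log2 fold change of −0.02 had a 95% interval of −0.12 to 0.07 (edgeR adjusted p = 0.791). Hsp90b1, the ER member of the HSP90 family, had 158, 164 and 163 FPKM in DKO and 173, 160.2 and 145 FPKM in LKO. The LKO libraries spanned the DKO values on both sides, with replicate 1 highest and replicate 3 lowest (log2 fold change 0.03, 95% interval −0.08 to 0.14, edgeR adjusted p = 0.785).

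Pdia4, a protein disulfide isomerase that helps form disulfide bonds, had 54.3, 57.6 and 54.98 FPKM in DKO and 71.2, 64.7 and 65.1 FPKM in LKO. All DKO values lay below all LKO values, and the gene fell 1.20-fold (log2 fold change −0.26 ± 0.05 SE, edgeR adjusted p = 0.000921). An exon of Pdia4 also shares bases with the microRNA gene Mir704 in GENCODE. The isomerases Pdia3 and Pdia6 did not pass: Pdia3 averaged 195 ± 4.57 FPKM in DKO and 187 ± 12.2 FPKM in LKO (SD, n = 3 each; edgeR adjusted p = 0.37), and Pdia6 averaged 78.4 ± 2.63 FPKM in DKO and 80.2 ± 2.72 FPKM in LKO (edgeR adjusted p = 0.847). The lectin chaperones of glycoprotein folding, Calr and Canx, did not pass either, at 234 ± 8.40 and 108 ± 5.02 FPKM in DKO against 248 ± 6.15 and 106 ± 7.10 FPKM in LKO (edgeR adjusted p = 0.3 and 0.724).

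The remaining chaperones and folding enzymes, among them co-chaperones that work with BiP, were lower in level, between 10.7 and 36.0 FPKM on average, and none passed. Dnajb9, also called ERdj4 and a target of XBP1, was the nearest to the threshold, with 18.2, 17.5 and 21.1 FPKM in DKO and 16.7, 16.8 and 15.4 FPKM in LKO. The groups did not overlap, yet the log2 fold change of 0.23 had an edgeR adjusted p of 0.0539, and it passed without DKO replicate 2 (adjusted p = 0.031). For Dnajb11, Dnajc3, Sdf2l1, Manf, Creld2 and Hyou1 the groups overlapped and log2 fold changes lay between −0.06 and 0.06. Summed over the 14 chaperones and enzymes, the level was 1140 to 1168 FPKM in DKO and 1116 to 1222 FPKM in LKO, so the LKO libraries spanned the DKO range.

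Of the 3 sensors of ER stress, Ern1 rose, Atf6 fell and Eif2ak3 did not pass. Ern1 (IRE1), the kinase and nuclease that splices Xbp1, had 10.3, 10.2 and 11.1 FPKM in DKO and 6.46, 7.37 and 7.19 FPKM in LKO. Every DKO library was above every LKO library, and its rise of 1.52-fold was the largest among the 33 tested members (log2 fold change 0.60 ± 0.07 SE, edgeR adjusted p = 2.97e-06). Atf6 had 23.1, 24.1 and 25.3 FPKM in DKO and 29.9, 28.0 and 27.5 FPKM in LKO. The groups again did not overlap, and Atf6 fell 1.17-fold (log2 fold change −0.23 ± 0.05 SE, edgeR adjusted p = 0.00264).

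Eif2ak3 (PERK) had 7.52, 7.42 and 8.53 FPKM in DKO and 7.22, 6.86 and 6.28 FPKM in LKO. The DKO values lay above the LKO values, but the log2 fold change of 0.21 (95% interval 0.05 to 0.36) had an edgeR adjusted p of 0.0706. It passed without LKO replicate 1 (adjusted p = 0.0495).

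**Figure D2:**
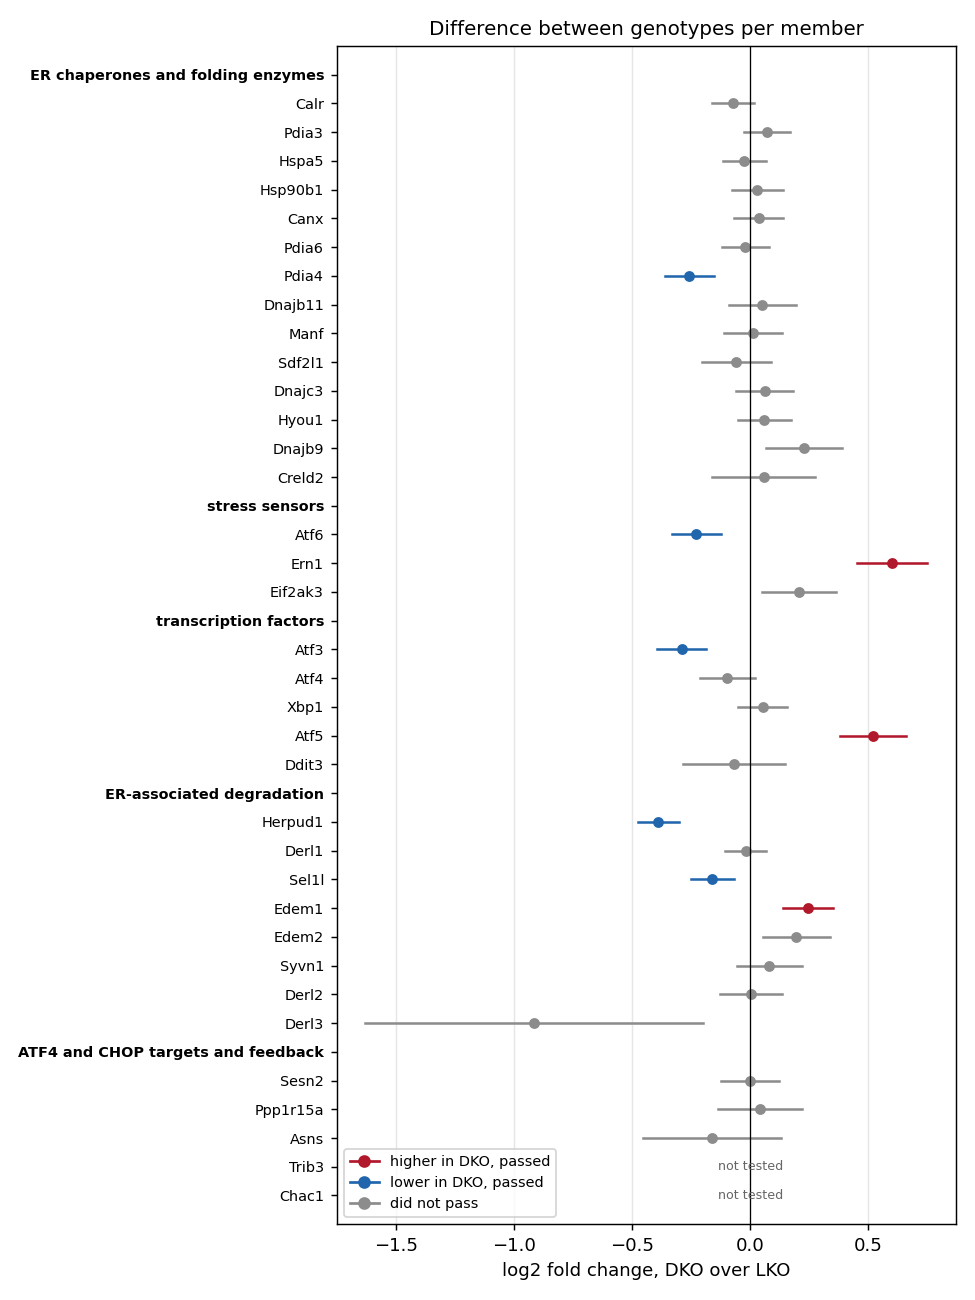
Log2 fold change of DKO over LKO for each tested member with its 95% interval, by role, in red where higher and in blue where lower at an edgeR adjusted p of 0.05. Ern1 and Atf5 stand to the right and Herpud1 to the left of a column of points near 0, and Derl3 has the widest interval.

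Xbp1, the factor whose mRNA IRE1 splices, did not pass, and its total level does not show splicing. It had 53.2, 55.7 and 55.3 FPKM in DKO and 51.9, 54.7 and 52.9 FPKM in LKO. The groups overlapped, with a log2 fold change of 0.05 (95% interval −0.05 to 0.15, edgeR adjusted p = 0.565). The files list 2 transcripts for Xbp1 with 1 length for the gene in each library. That length differed between libraries for 3993 of 5003 genes with several transcripts and for none of the 11868 genes with 1 transcript, so it moves with the estimated mix of transcripts. For Xbp1 it was 2261.73, 2262.47 and 2261.94 bases in DKO and 2262.27, 2261.39 and 2261.16 bases in LKO, a spread of 1.31 bases in which the groups overlapped. The separate lengths of the 2 transcripts were not used, so how large a change in their mix this spread stands for cannot be told. Of the 11 members with several transcripts, the lengths of Hspa5 and Canx did not overlap between groups, against 8.93% of such genes tested. For Hspa5 they were 2544.73, 2543.33 and 2546.59 bases in DKO and 2542.89, 2541.3 and 2542.43 bases in LKO.

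Of the factors of the PERK arm, Atf5 rose, Atf3 fell, and Atf4 and Ddit3 did not pass. Atf4, the central factor of the integrated stress response, had 57.3, 53.5 and 50.5 FPKM in DKO and 56.0, 57.3 and 62.3 FPKM in LKO. These overlapped (log2 fold change −0.10, 95% interval −0.21 to 0.02, edgeR adjusted p = 0.288). Ddit3 (CHOP), a factor linked to cell death under lasting ER stress, had 17.03, 18.4 and 15.6 FPKM in DKO and 18.7, 16.3 and 19.0 FPKM in LKO. It did not separate the groups, and its interval on the log2 scale ran from −0.28 to 0.15 (edgeR adjusted p = 0.75).

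Atf5, a factor translated under eIF2 phosphorylation and known for the mitochondrial unfolded protein response, had 35.2, 33.9 and 30.5 FPKM in DKO and 23.3, 22.03 and 24.8 FPKM in LKO. Every DKO library exceeded every LKO library, a rise of 1.43-fold (log2 fold change 0.52 ± 0.07 SE, edgeR adjusted p = 9.61e-06). In GENCODE an exon of Atf5 shares up to 82 bases with Nup62 and Il4i1 on the opposite strand, and the strand setting of the counting is not given. The expected counts of Atf5 were whole numbers in every library (431 to 700). The part of reads from those bases in the Atf5 values was not tested. Nup62, a nuclear pore subunit, rose as well, by a log2 fold change of 0.31 (22.7 ± 0.825 FPKM in DKO, 18.4 ± 0.62 FPKM in LKO, SD, n = 3 each, edgeR adjusted p = 0.000357). Il4i1, an amino acid oxidase, fell by 1.83 on the log2 scale at a low level (edgeR adjusted p = 0.0251).

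Atf3, a factor induced by ATF4 and by many other signals, had 77.0, 75.1 and 73.6 FPKM in DKO and 98.7, 90.8 and 88.6 FPKM in LKO. The groups did not overlap and Atf3 fell 1.22-fold (log2 fold change −0.29 ± 0.05 SE, edgeR adjusted p = 0.000256). Atf3 is also an early response gene of stimulated or handled cells. Of 8 other genes of that kind tested, 3 rose (Junb, Egr1 and Ier3) and none fell, with summed levels over 9 genes of 179.31 to 192 FPKM in DKO and 161 to 179.23 FPKM in LKO.

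The fall with the smallest p among the members was in the degradation arm. Herpud1, an ER membrane protein that brings misfolded substrates to the ubiquitin ligase complex, had 138, 133 and 133 FPKM in DKO and 177, 176 and 180.5 FPKM in LKO. The libraries of a genotype lay close together and far from the others, and Herpud1 fell 1.31-fold (log2 fold change −0.39 ± 0.04 SE, edgeR adjusted p = 8.57e-07). Sel1l, the scaffold of that ligase complex, had 44.3, 41.7 and 44.6 FPKM in DKO and 50.5, 48.2 and 48.3 FPKM in LKO. It fell 1.12-fold without overlap (log2 fold change −0.16 ± 0.04 SE, edgeR adjusted p = 0.018), but the call rested on DKO replicate 2 and was lost without it (adjusted p = 0.128).

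Edem1, a lectin-like protein that marks misfolded glycoproteins for removal, went the other way, with 33.6, 32.2 and 36.1 FPKM in DKO and 30.1, 28.8 and 27.8 FPKM in LKO. All DKO values lay above all LKO values, a rise of 1.18-fold (log2 fold change 0.24 ± 0.05 SE, edgeR adjusted p = 0.00196). Its relative Edem2 had 21.3, 20.03 and 22.96 FPKM in DKO and 18.4, 19.9 and 18.3 FPKM in LKO, also without overlap but with an edgeR adjusted p of 0.0575. Edem2 passed without DKO replicate 2 (adjusted p = 0.0351), and likewise if LKO replicate 2 was left out (adjusted p = 0.0478).

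The ligase Syvn1 (HRD1) and the derlins, membrane proteins of the retrotranslocation channel, did not pass. Syvn1 averaged 19.1 ± 1.36 FPKM in DKO and 18.2 ± 1.19 FPKM in LKO, Derl1 82.7 ± 0.692 FPKM in DKO and 84.4 ± 1.47 FPKM in LKO, and Derl2 11.4 ± 0.336 FPKM in DKO and 11.4 ± 0.49 FPKM in LKO (SD, n = 3 each). Derl3, a derlin that is abundant in secretory cells such as plasma cells, had 1.24, 0.48 and 0.76 FPKM in DKO and 1.25, 1.33 and 2.18 FPKM in LKO, from 7 to 31 counts. DKO replicate 1 stood just under the lowest LKO value, the log2 fold change was −0.91 (95% interval −1.63 to −0.20), and the edgeR adjusted p was 0.0844, or 0.038 without DKO replicate 1. Of the 7 plasma cell markers tested in the same libraries, 3 fell and 4 did not pass, and 2 had log2 fold changes above 0. Jchain fell (1.47 to 2.46 FPKM in DKO, 3.21 to 4.53 FPKM in LKO, log2 fold change −0.94), and so did Mzb1, whose groups overlapped (0.81 to 1.92 FPKM in DKO, 1.73 to 3.63 FPKM in LKO, log2 fold change −1.01). Their part in the Derl3 values was not tested.

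**Figure D3:**
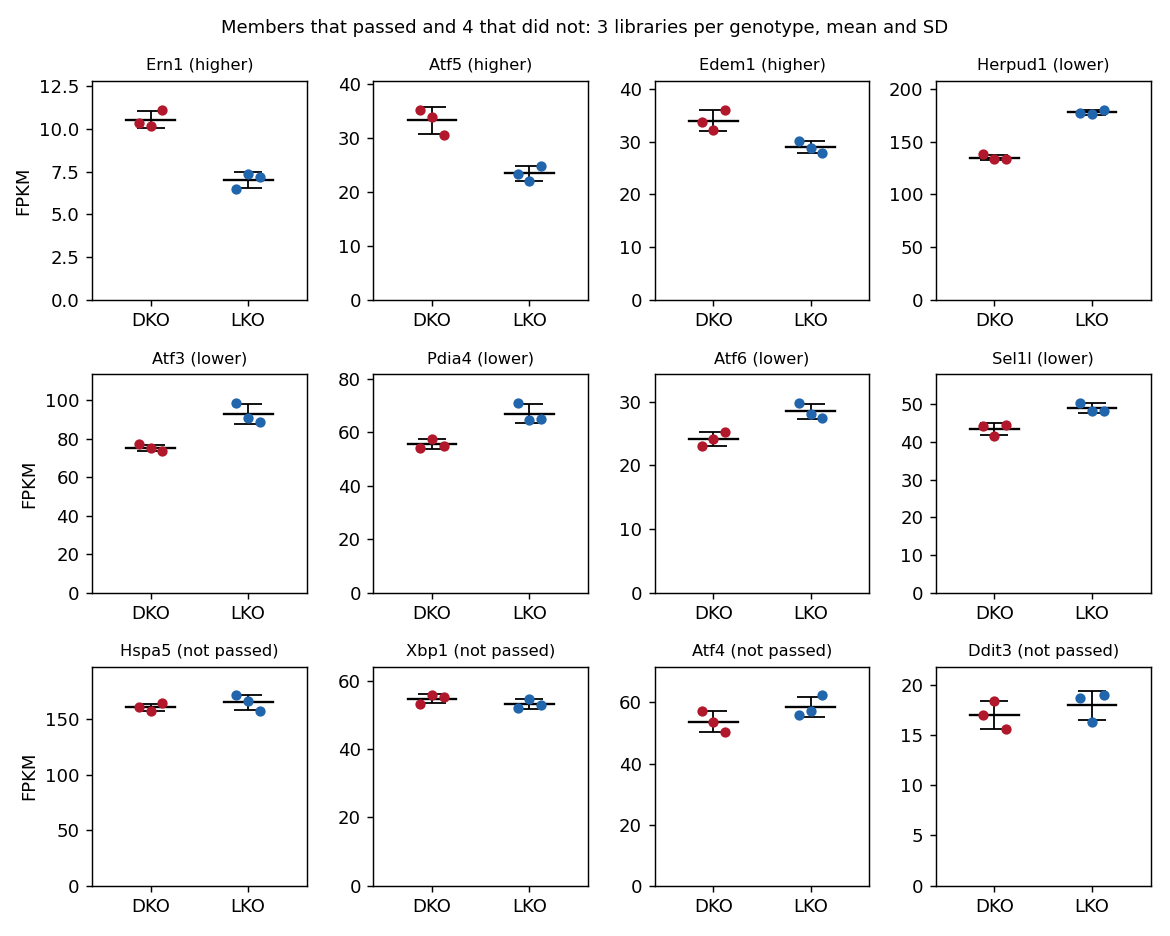
FPKM in each of the 3 DKO libraries (left) and 3 LKO libraries (right) for the 8 members that passed and for Hspa5, Xbp1, Atf4 and Ddit3, with the mean as a line and the SD as a bar, on axes that start at 0. The points of the genotypes separate in the first 8 panels and overlap in the last 4.

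None of the 3 tested targets and feedback genes downstream of ATF4 and CHOP passed in edgeR, DESeq2 or limma, and none had an unadjusted p under 0.05. With 14.3% of all genes passing in edgeR, 0 of 3 is near that share and no result about these genes. Trib3, a pseudokinase that ATF4 and CHOP induce and that restrains ATF4, had 0.31, 0.36 and 0.40 FPKM in DKO and 0.18, 0.32 and 0.50 FPKM in LKO. Chac1, a glutathione-degrading enzyme and a sensitive ATF4 target, averaged 0.29 ± 0.207 FPKM in DKO and 0.177 ± 0.00577 FPKM in LKO (SD, n = 3 each), which is 2 to 9 counts. Both were below the count filter, and in edgeR without a filter neither passed (adjusted p = 0.932 for Trib3 and 0.634 for Chac1). Asns, which makes asparagine, averaged 3.96 ± 0.64 FPKM in DKO and 4.46 ± 0.156 FPKM in LKO (edgeR adjusted p = 0.524). Ppp1r15a (GADD34), which directs the dephosphorylation of eIF2, averaged 8.05 ± 0.0462 FPKM in DKO and 7.88 ± 0.405 FPKM in LKO (edgeR adjusted p = 0.834). Sesn2, a leucine sensor of the mTORC1 pathway, had 20.5, 20.7 and 20.3 FPKM in DKO and 19.7, 20.7 and 21.7 FPKM in LKO, with a 95% interval of −0.12 to 0.12 on the log2 scale.

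Other genes of the ER and of the integrated stress response were taken as 6 whole lists of 141 names, of which 135 could be tested. Of these 16 rose and 9 fell (18.5%, against 14.3% of all genes), with a median log2 fold change of 0.03. Between the lists the share passing ran from 5.0% for further degradation genes to 36.4% for the wider ATF4 list. Among 24 further folding, redox and translocation genes, 3 rose and none fell. They were Sec61a1, the channel through which new proteins enter the ER (41.8, 47.6 and 46.0 FPKM in DKO, 36.8, 40.0 and 38.2 FPKM in LKO), the ER peroxidase Prdx4 (log2 fold change 0.35) and the disulfide isomerase P4hb (log2 fold change 0.14). The Prdx4 call was lost without DKO replicate 3 or LKO replicate 3 (adjusted p up to 0.0771), and that of P4hb without DKO replicate 2 or 3 or LKO replicate 2 or 3 (adjusted p up to 0.168). Of 27 genes of signal peptide cleavage and N-glycosylation, the oligosaccharyltransferase subunits Rpn2 and Ddost rose, each by 0.18 on the log2 scale, and none fell. Both calls were lost without DKO replicate 3 (adjusted p = 0.0574 and 0.105), and that of Rpn2 also without LKO replicate 3 (adjusted p = 0.0564). Of 20 further degradation genes, Aup1 rose (log2 fold change 0.19), a call lost without DKO replicate 1 or 3 or LKO replicate 1 (adjusted p up to 0.0886), and none fell.

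Of 15 genes of the eIF2 kinases and their substrate, Eif2ak2 (PKR), an eIF2 kinase that senses double-stranded RNA and is induced by interferon, had 24.1, 25.7 and 26.1 FPKM in DKO and 21.0, 22.6 and 19.9 FPKM in LKO. The groups did not overlap (log2 fold change 0.27 ± 0.06 SE, edgeR adjusted p = 0.00201). Dele1, which relays mitochondrial stress to the kinase HRI, rose by 0.26 on the log2 scale, and Eif2s3x, a subunit of eIF2, fell by 0.18. The Dele1 call was lost in all 6 fits but one that left out a library, the one without DKO replicate 3 (adjusted p up to 0.199), and that of Eif2s3x without DKO replicate 2 (adjusted p = 0.0614).

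The 33 tested genes of the wider ATF4 list moved in both directions, with 4 higher and 8 lower and a median log2 fold change of −0.08. This is 36.4% passing, against 14.3% of all genes. For 19 the groups did not overlap (6 above and 13 below), against 29.6% of all genes tested. The 4 that rose were Cebpb, a partner of ATF4 and CHOP, the stress cytokine Gdf15, the autophagy receptor Sqstm1 and Slc3a2, the heavy chain of amino acid transporters. Gdf15 had 7.85, 7.72 and 6.09 FPKM in DKO and 3.00, 3.38 and 4.62 FPKM in LKO. All its DKO values were above its LKO values (log2 fold change 0.99 ± 0.17 SE, edgeR adjusted p = 0.000346). Cebpb had 44.7, 48.5 and 52.5 FPKM in DKO and 24.2, 34.4 and 38.2 FPKM in LKO, again without overlap (log2 fold change 0.60 ± 0.10 SE, edgeR adjusted p = 0.000244). Psat1, an enzyme of serine synthesis, had 2.85, 2.53 and 2.90 FPKM in DKO and 4.61, 4.12 and 4.53 FPKM in LKO. It had the largest fall of the list (log2 fold change −0.67 ± 0.14 SE, edgeR adjusted p = 0.00139), and each of the other 7 falls was lost when some single library was left out, so that 2 to 6 of the 8 falls stood in those 6 fits, with 2 standing without DKO replicate 3. The 8 were Eprs, Gars, Mthfd2, Psat1, Shmt2, Slc1a5, Slc7a1 and Slc7a11. DESeq2 called 3 of the 8, Psat1, Slc7a1 and Slc7a11, and limma on log2(FPKM + 1) called Mthfd2, Psat1 and Slc7a11. Slc7a11 had 61.3, 61.0 and 59.4 FPKM in DKO and 67.5, 67.0 and 67.35 FPKM in LKO (log2 fold change −0.14, edgeR adjusted p = 0.0159). Sqstm1 is also a target of NRF2, the factor of the antioxidant response, and a part of NRF2 in these values was not tested.

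Of 16 genes of sensor processing and of signalling from the stressed ER, 4 rose and none fell. Creb3l2, an ER membrane factor related to ATF6, had 3.16, 2.82 and 3.31 FPKM in DKO and 1.97, 2.35 and 2.09 FPKM in LKO, without overlap (log2 fold change 0.55 ± 0.13 SE, edgeR adjusted p = 0.00655). The others were the mitochondrial death effector Bak1 (log2 fold change 0.28), Bbc3 (PUMA, 0.27) and Tmbim6 (Bax inhibitor 1, 0.15). The Bbc3 call was lost in each fit that left out a library except LKO replicate 2 (adjusted p up to 0.11), and that of Tmbim6 without DKO replicate 2 or 3 or LKO replicate 1 (adjusted p up to 0.102).

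**Figure D4:**
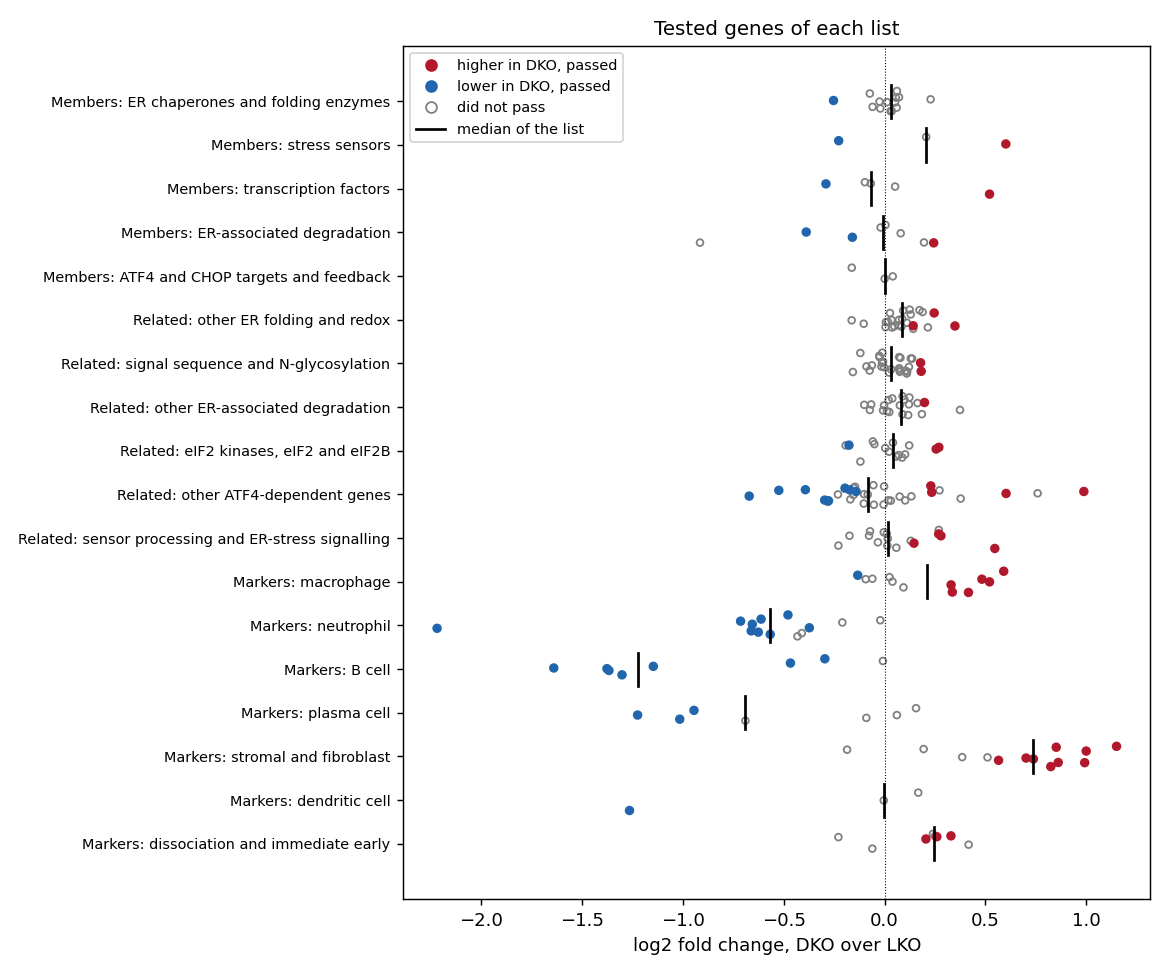
Log2 fold change of DKO over LKO for the tested genes of each list, as filled points where an edgeR adjusted p of 0.05 was passed and open points where not, with the list's median as a bar. The medians of the member and related lists lie between −0.08 and 0.21. Those of the dendritic cell, macrophage and immediate early marker lists lie at −0.0037, 0.212 and 0.245. The medians of the neutrophil, B cell, plasma cell and stromal marker lists lie further from 0.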

How the data were processed

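RNA sequencing of 6 libraries (3 DKO, 3 LKO) was analysed, grouped by sample title. Per the file headers, the deposited files hold expected counts, which are estimated reads per gene not scaled to depth, a transcript length in bases, and FPKM values, which the authors scaled to length and depth. The submitters' processing notes name Bowtie 0.12.2 and build mm8, while for the counting tool and its strand option the sources used here give nothing. The files list genes of at least 0.01 FPKM, and a missing gene was taken as 0. Of 16871 gene numbers, 16832 matched a RefSeq symbol (GRCm38, names only). Dnajb11 and Ppp1r15a had fractional counts in a library (further than 0.005 from a whole number), so some of their reads were shared between genes. GENCODE exons of 12 members share bases with another annotated gene. Replicates differed beyond sampling noise (chi-square per degree of freedom of 1.68 to 3.71 within groups and 8.30 to 14.9 across groups).

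Expected counts were rounded to whole numbers. The main test was the quasi-likelihood test of edgeR 4.0.16 in R 4.3.3, after filterByExpr and TMM scaling and without a block, and p-values were adjusted over 11809 genes by Benjamini and Hochberg's method. Standard errors come from the fold change and F statistic. The 95% intervals come from these and edgeR's total degrees of freedom, with no adjustment. That total adds degrees of freedom borrowed across genes to the residual ones. Alternatives were DESeq2 1.42.0, other size factors, no count filter, a replicate block, limma 3.58.1 on log2(FPKM + 1) with other pseudocounts (0.1), filters and scalings, a threshold of 0.01, and leaving out each library. Limma kept genes of at least 1 FPKM in 3 libraries, and its fold changes understate those of low genes. The scripts were tested on simulated data, with a pass rule only for changes larger than those of the called members. Changes as small as theirs were not covered by that rule. The members and lists were chosen with earlier results of these data known, and the band of −0.3 to 0.3 in log2 fold change after values were seen. Named genes are the 35 members, with values per library for those that passed and for the main regulators, Aldh2, and per related list up to 4 of smallest p plus all of a direction with 5 or fewer. The 8 falls of the wider ATF4 list were named as well. Intervals cover counting error and library spread only, and 1 name of the lists had no gene in the files.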

Additional observations from a re-analysis of the deposited data

How the results depend on the processing

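Ern1, Atf5, Herpud1, Atf3 and Pdia4 kept their direction and call in all 17 alternatives, while limma without a filter ended the calls of Atf6 (adjusted p = 0.0527), Edem1 (0.0662) and Sel1l (0.0637). The Sel1l call also ended after median centring (limma adjusted p = 0.0558) and at the stricter threshold of 0.01. Of 136 refits of the 8 called members 130 kept the call, as did 420 of 425 for those not called, which counts no sign of an uncalled gene. Over all genes, edgeR made 1689 calls, 1537 without a count filter, 1005 at a threshold of 0.01 and 1175 to 1481 with 1 library left out, and DESeq2 made 1205. Limma on log2(FPKM + 1) made 1130 calls, against which a pseudocount of 0.1 gave 1119, median centring 1124 and no filter 807. Upper-quartile normalization turned the balance of edgeR calls to 747 higher and 967 lower, against 876 higher and 813 lower with TMM, and left 5 members lower. Members higher in DKO numbered 3 to 5 and members lower 4 to 6 with 1 library left out, with 5 higher without DKO replicate 2, and 3 members were lower in limma without a filter. Of the related genes edgeR called 25, 20 without a count filter, 10 at a threshold of 0.01 and 13 to 22 with 1 library left out, 13 being without DKO replicate 3. DESeq2 called 18, and limma 16 on log2(FPKM + 1) and after rescaling to TPM, 15 with a pseudocount of 0.1 and 7 without a filter. Among related genes that rose, the calls of Dele1, P4hb, Tmbim6, Aup1 and Bbc3 ended in 15, 12, 10, 9 and 9 of the 17 alternatives. Among those that fell, the calls of Gars, Eprs, Slc1a5 and Shmt2 ended in 14, 13, 12 and 11. Fewer libraries or genes enter some of these fits, and beyond that the cause was not tested. Equal replicate numbers did not deviate together (correlations of 0.0179, −0.056 and −0.0273). With so few libraries this cannot show whether they share an animal or culture day, which the labels do not state. With a replicate block 1553 genes, 3 higher and 5 lower members and 20 related genes passed. Depth left Trib3, Chac1 and Derl3 with at most 31 counts, where only large differences could be detected.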

Other observations

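The ERSE search over all promoter windows also found 28 genes that are no member, of which 14 were listed in the files and 8 could be tested. Of these, Acacb, an acetyl-CoA carboxylase, was higher in DKO at under 0.5 FPKM in every library (log2 fold change 2.45, edgeR adjusted p = 5.06e-05), and Xlr3b (log2 fold change −1.46, edgeR adjusted p = 0.00027) and the RNA-binding protein gene Hnrnpa3 (−0.17, edgeR adjusted p = 0.0406) were lower. The oxidase of the ER folding machinery, Ero1b, and the mannosyltransferase Alg12, which builds the glycan that is added to new proteins, had an ERSE and did not pass (log2 fold changes of 0.09 and 0.04).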
